A study of Danio rerio with 6 samples.

Results

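pou5f3 (ENSDARG00000044774), nanog (ENSDARG00000075113) and sox19b (ENSDARG00000040266) encode the transcription factors that zebrafish mothers place in the egg as mRNA and that open the embryo's own genome for transcription. These 3 genes, chosen by identifier out of 32266 listed, were followed in 6 RNA-seq libraries made at 50% epiboly, the stage of early gastrulation at which the cells have spread over 50% of the yolk. MZsmad4a embryos (3 libraries) lack smad4a from the mother and from their own genome because both parents were homozygous for a small frameshifting deletion in the linker region of Smad4a. They were set against WT embryos (3 libraries), and both genotypes were of the Tubingen (TU) strain. Each library was made from 25 pooled whole embryos, so differences between single embryos or between tissues are not resolved. The labels number the libraries of a genotype, and the study treats them as biological replicates from different clutches. Smad4 is the partner that joins receptor-activated Smads downstream of BMP and Nodal ligands, and the comparison addresses whether its loss altered what remained of the genome activation factors.

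Pou5f3 is a POU-domain homeobox protein related to mammalian Oct4, Nanog is a homeobox protein, and Sox19b is the SoxB1-class HMG-box protein that mothers supply. In the blastula they bind regulatory DNA ahead of the main wave of transcription. After genome activation much maternal mRNA is degraded, and pou5f3 and the SoxB1 genes are also transcribed by the embryo, in the presumptive ectoderm and later in the neural plate. A whole-embryo library at 50% epiboly therefore holds the sum of maternal remainder and new transcript, and these could not be told apart. Likewise, fewer cells with a transcript and less transcript per cell cannot be told apart in bulk samples.

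The libraries held 18138714 to 19900859 expected counts in MZsmad4a embryos and 9807865 to 20833491 in WT embryos, WT replicate 1 being the shallowest. Expected counts are the reads that the authors' software assigned to each gene. smad4a itself (ENSDARG00000075226) had 13.1, 15.3 and 14.6 CPM in MZsmad4a embryos, against 54.7, 62.3 and 60.8 CPM in WT embryos, so each library matched its label. CPM here means counts scaled to a common library size by the TMM method. A gene was called when edgeR's quasi-likelihood test gave a Benjamini-Hochberg adjusted p under 0.01 over the 15720 genes tested. That test called 77 genes lower and 35 higher in MZsmad4a embryos, 0.712% of those tested, and 105 lower and 24 higher when only library size was used for scaling, which moved the median log2 fold change of all genes to -0.11. Enveloping layer genes, keratins among them, were expressed in both genotypes (8 genes summed to 8184 to 9373 TPM in MZsmad4a embryos and 8209 to 9738 TPM in WT embryos), which does not fix the stage. In contrast, 3 genes of later stages, the muscle genes myod1 and myf5 and the neuronal gene neurog1, summed to 6.38 to 14.6 TPM in MZsmad4a embryos and 4.08 to 9.19 TPM in WT embryos. myf5 made up most of that sum in every library.

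All 3 factors were still present at 50% epiboly, at very different levels. On the scale of TPM, which divides by transcript length and allows genes to be compared with each other, pou5f3 averaged 1217 ± 98.1 TPM in MZsmad4a embryos and 1366 ± 89.7 TPM in WT embryos (SD, n = 3 each). It ranked between 69 and 90 from the top of all 32266 genes in the MZsmad4a libraries and between 64 and 80 in the WT libraries. nanog averaged 59.3 ± 18.2 TPM in MZsmad4a embryos and 48.9 ± 4.17 TPM in WT embryos, at ranks 2108 to 3542 in MZsmad4a libraries and 2851 to 3328 in WT libraries. sox19b was the lowest of the 3, with 36.5 ± 6.57 TPM in MZsmad4a embryos and 24.5 ± 3.78 TPM in WT embryos, at ranks 3236 to 4161 in MZsmad4a libraries and 4692 to 5660 in WT libraries. Each of the 3 is listed with a single transcript, and their expected counts were whole numbers in all 6 libraries.

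**Figure D1:**
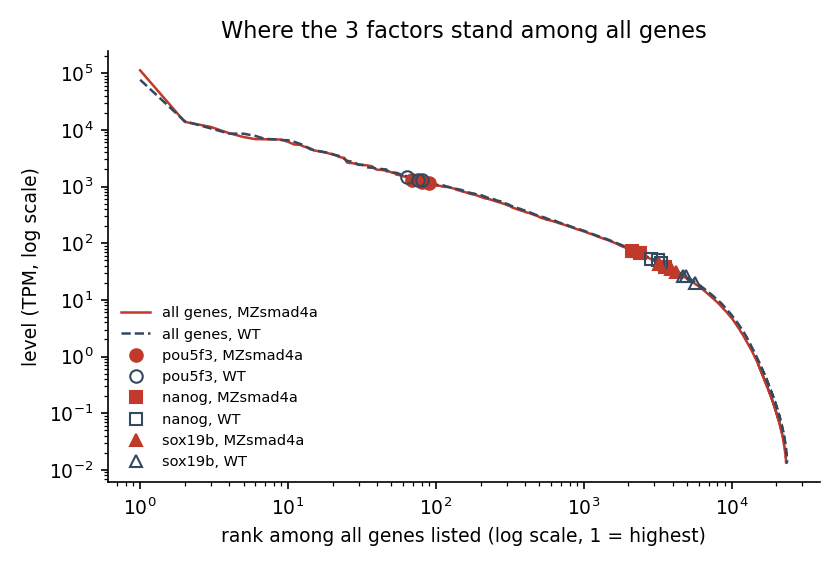
Level in TPM (log scale) against rank among all genes listed (log scale), with the lines showing the mean of the 3 libraries of each genotype and the points the single libraries, filled for MZsmad4a and open for WT. pou5f3 sits among the top 90 genes in every library, while nanog and sox19b lie between ranks 2108 and 5660.

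The order pou5f3, nanog, sox19b held in all 3 WT libraries and in MZsmad4a replicates 2 and 3. In MZsmad4a replicate 1, sox19b (43.6 TPM) stood above nanog (38.6 TPM), so these neighbours in the order did not differ beyond their spread in MZsmad4a embryos, whereas in WT embryos their libraries did not overlap. The TPM of pou5f3 was 29.4, 17.8 and 18.2 times that of nanog in MZsmad4a replicates 1, 2 and 3, against 26.3, 25.1 and 33.1 times in WT replicates 1, 2 and 3. It was 26.1, 33.6 and 43.4 times that of sox19b in the MZsmad4a libraries, against 48.9, 49.7 and 73.0 times in the WT libraries. The second of these ratios was lower in every MZsmad4a library than in any WT library.

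None of the 3 factors was called between the genotypes. edgeR's quasi-likelihood test called 0 of 3, DESeq2's Wald test called 0 of 3, and 1 of the 3 (sox19b) had an unadjusted p under 0.05 in edgeR, where edgeR called 0.712% of all genes, DESeq2 called 3.71% and 17.5% had an unadjusted p under 0.05 in edgeR. In simulated counts the same edgeR test recovered 32% of log2 changes of 1, so genes that were not called may still differ. The 3 genes differed in how closely the comparison bounded them.

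pou5f3, whose loss in zebrafish disturbs epiboly, dorsoventral patterning and endoderm, had 1601, 1617 and 1874 CPM in MZsmad4a replicates 1, 2 and 3, against 1605, 1774 and 1921 CPM in WT replicates 1, 2 and 3. The genotypes overlapped, and in each genotype replicate 3 was the highest library. These levels rested on 27741 to 35639 counts in MZsmad4a embryos and 17016 to 37170 counts in WT embryos, a counting error below 1% in every library. The log2 fold change was -0.06 (SE 0.10, edgeR adjusted p = 0.81). Under TMM scaling the 95% interval of the fold ran from 0.825 to 1.12 for this gene taken alone. That is not a limit of detection at the threshold for calling. Leaving out WT replicate 3 turned the sign, at 0.0053. With only library size used for scaling, the log2 fold change was -0.165, with a 95% interval of -0.364 to 0.034 on the log2 scale.

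nanog, which is required maternally for the yolk syncytial layer and for activation of many early genes, had 39.8, 66.3 and 75.2 CPM in MZsmad4a replicates 1, 2 and 3, against 44.7, 51.7 and 42.4 CPM in WT replicates 1, 2 and 3. MZsmad4a replicate 1 was the lowest of the 6 libraries and MZsmad4a replicates 2 and 3 were the highest. The MZsmad4a libraries therefore spread around the WT libraries (60.4 ± 18.4 CPM in MZsmad4a embryos and 46.3 ± 4.83 CPM in WT embryos, SD, n = 3 each). The log2 fold change was 0.38 (SE 0.22, edgeR adjusted p = 0.435), with a 95% interval of the fold from 0.914 to 1.86.

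The size of the nanog difference depended on which MZsmad4a libraries were included. Without MZsmad4a replicate 1 the log2 fold change was 0.61 (edgeR adjusted p = 0.0751), and without MZsmad4a replicate 3 it was 0.20 (adjusted p = 0.73). MZsmad4a replicate 1 was also the library with the least egg transcript: the 10 matched genes of a list of egg mRNAs summed to 348 TPM there, to 515 and 500 TPM in MZsmad4a replicates 2 and 3, and to 452, 471 and 505 TPM in WT replicates 1, 2 and 3. The 8 germ cell marker genes summed to 218, 238 and 258 TPM in MZsmad4a replicates 1, 2 and 3 and to 226, 246 and 248 TPM in the WT libraries. ddx4 made up most of the germ cell sum in every library. Its log2 fold change was 0.28, while the median over the 8 germ cell genes was -0.24. The part of the egg transcripts and of the germ cell genes in the nanog values was not tested.

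sox19b had 63.6, 49.9 and 44.8 CPM in MZsmad4a replicates 1, 2 and 3, against 34.1, 37.0 and 27.3 CPM in WT replicates 1, 2 and 3. Every MZsmad4a library was above every WT library, as was the case, in this direction, for 11.8% of all genes tested. The means were 52.8 ± 9.75 CPM in MZsmad4a embryos and 32.8 ± 4.97 CPM in WT embryos (SD, n = 3 each), on 852 to 1103 counts in MZsmad4a libraries and 361 to 775 counts in WT libraries. The log2 fold change was 0.69 (SE 0.17), a fold of 1.61 with a 95% interval of 1.22 to 2.13 for this gene taken alone, and it did not pass over all genes (unadjusted p = 0.00419, adjusted p = 0.0861, edgeR). DESeq2 placed it just outside the threshold (adjusted p = 0.0106). MZsmad4a replicate 1 was the highest library, and without it the log2 fold change was 0.53 (edgeR adjusted p = 0.177). The summed level of the 3 genes of later stages, most of it myf5 in every library, was also highest there, at 14.6 TPM. This sum was 10.2 and 6.38 TPM in MZsmad4a replicates 2 and 3 and 6.65, 9.19 and 4.08 TPM in WT replicates 1, 2 and 3. Its part in the sox19b values was not tested.

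**Figure D2:**
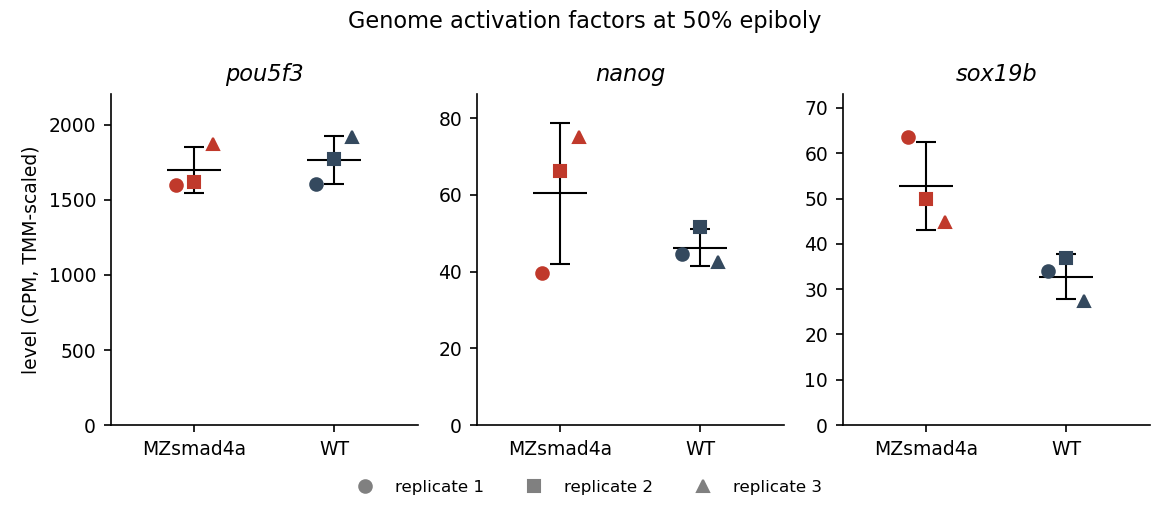
Level of pou5f3, nanog and sox19b in CPM by genotype (each panel has its own axis from 0), with 1 symbol per replicate number and the mean ± SD of 3 libraries in black. The genotypes overlap for pou5f3 and nanog, while all 3 MZsmad4a libraries of sox19b (44.8 to 63.6 CPM) lie above the WT libraries (27.3 to 37.0 CPM).

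The levels of the 3 factors did not move together across the 6 libraries. Pearson's r of log2 CPM was 0.22 between pou5f3 and nanog, -0.58 between pou5f3 and sox19b and 0.19 between nanog and sox19b, as a description over 6 libraries of 2 genotypes. Among 10695 other genes with a symbol and at least 50 counts on average, the closest in pattern to pou5f3 were DOCK1, KPNA4 and actr2b (r of 0.988, 0.987 and 0.971). Those closest to nanog were AGAP3, PEX5 and SNRPD3 (0.992, 0.98 and 0.979), and those closest to sox19b were zc3h11a, zgc:66448 and NATD1 (0.995, 0.994 and 0.993). With so few libraries such values are common: 67, 80 and 277 genes reached an r of 0.9 with pou5f3, nanog and sox19b. Symbols in capitals are as the table of names gives them.

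The other SoxB1 genes show what sox19b contributes to its family at this stage. SoxB1 proteins bind the same DNA motif, and in zebrafish sox19a, sox2 and sox3 take over from maternal sox19b in the ectoderm and neural plate. sox19a was the most abundant, with 405, 460 and 410 TPM in MZsmad4a embryos, against 357, 340 and 326 TPM in WT embryos. sox3 had 209, 292 and 318 TPM in MZsmad4a embryos, against 297, 307 and 309 TPM in WT embryos, and sox2 had 101, 93.7 and 91.4 TPM in MZsmad4a embryos, against 78.5, 75.4 and 81.4 TPM in WT embryos. sox19b was thus the lowest of the 4 SoxB1 genes that could be tested. The remaining pair of identifiers, both named SOX1, had at most 3 counts in any library and no level could be given to them.

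**Figure D3:**
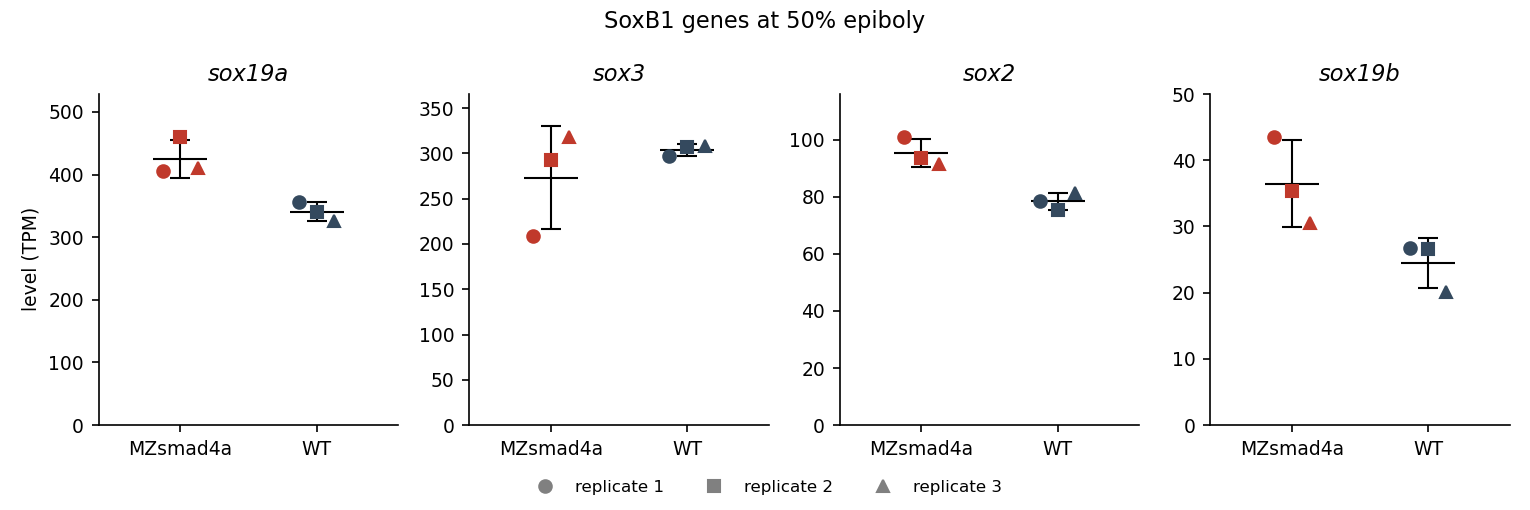
Level of the 4 SoxB1 genes with testable counts, in TPM by genotype (each panel has its own axis from 0), with 1 symbol per replicate number and the mean ± SD of 3 libraries in black. sox19a, sox2 and sox19b are higher in all 3 MZsmad4a libraries than in any WT library, and MZsmad4a replicate 1 of sox3 (209 TPM) lies below the others.

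Of these 4 SoxB1 genes, 3 (sox19a, sox2 and sox19b) had no overlap between the genotypes and were on the higher side in MZsmad4a embryos, against 11.8% of all genes. None was called by edgeR at an adjusted p under 0.01 (0 of 4), where it called 0.712% of all genes. In edgeR 3 had an unadjusted p under 0.05, against 17.5% of all genes. DESeq2 called 1, sox19a, where it called 3.71% of all genes. The log2 fold change of sox19a was 0.43 (SE 0.07, edgeR adjusted p = 0.0235, DESeq2 adjusted p = 0.00185). That of sox2, a gene of the neural plate and of pluripotent cells in mammals, was 0.39 (SE 0.09, edgeR adjusted p = 0.0726). sox3 had 202, 273 and 308 CPM in MZsmad4a embryos, against 251, 283 and 276 CPM in WT embryos, a log2 fold change of -0.05 (SE 0.15, edgeR adjusted p = 0.904), with MZsmad4a replicate 1 again the lowest library. The median log2 fold change of the 4 was 0.41, beside -0.01 over all genes tested.

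sox19b made up 5.74%, 4.01% and 3.59% of all SoxB1 TPM in MZsmad4a replicates 1, 2 and 3, against 3.52%, 3.55% and 2.73% in WT replicates 1, 2 and 3. The difference of 1.18 percentage points had p = 0.1 in an exact two-sided permutation test over libraries, the smallest p that 3 libraries against 3 allow, and 0.125 after Benjamini-Hochberg adjustment over 5 such tests. Without MZsmad4a replicate 1 it was 0.533 percentage points. sox19a held 51.3 ± 2.71% in MZsmad4a embryos and 45.6 ± 1.36% in WT embryos (exact permutation p = 0.1, adjusted 0.125), and sox3 held 32.7 ± 4.96% in MZsmad4a embryos and 40.7 ± 1.42% in WT embryos (exact permutation p = 0.1, adjusted 0.125; SD, n = 3 each). The remaining 2 tests gave an exact permutation p of 0.4 for the share of sox2 and of 0.1 for the SoxB1 total, which was 830 ± 64.0 TPM in MZsmad4a embryos and 748 ± 11.1 TPM in WT embryos (n = 3 each). That total was 758.74 TPM in MZsmad4a replicate 1 and 758.41 TPM in WT replicate 1, so in TPM the genotypes were barely apart. TPM was not TMM-scaled, and the TMM factors were 0.956 for MZsmad4a replicate 1 and 1.08 for WT replicate 1. The total was not tested under TMM scaling. The shares are parts of 1 total, so the 5 tests are not independent.

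Genes that pou5f3, nanog or SoxB1 factors are known to act on in the early zebrafish embryo were examined next, from a list of 18 symbols of which 14 matched an identifier and could be tested. edgeR called 1 of the 14, ved, on the lower side, where 0.49% of all genes were called lower. DESeq2 called 4 of the 14, where it called 3.71% of all genes. In edgeR 9 had an unadjusted p under 0.05, against 17.5% of all genes. The MZsmad4a libraries lay wholly below the WT libraries for 8 of the 14 (11.9% of all genes) and wholly above for 2 (11.8% of all genes). The median log2 fold change of the list was -0.24. The 8 genes on the lower side were ved, vox, vent, bmp7a, sox17, mxtx2, tbx16 and foxd3. The paper reports that most known BMP targets fell in these mutants and that sox17 was reduced. It also reports that bmp7a mRNA did not differ substantially and that tbx16 was unaffected. In these counts bmp7a had a log2 fold change of -0.54 (edgeR adjusted p = 0.181) and was not called. The part of BMP or Nodal signaling in the counts of this list was not tested.

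ved, a ventral homeobox repressor whose expression BMP signaling maintains in gastrulae, had 36.0, 53.3 and 68.8 CPM in MZsmad4a embryos, against 226.8, 231.7 and 187.0 CPM in WT embryos. It fell by 2.03 on the log2 scale (SE 0.22, edgeR adjusted p = 0.00475), with the genotypes far apart. It no longer passed without MZsmad4a replicate 2 (edgeR adjusted p = 0.0286), without WT replicate 1 (0.0182) or without WT replicate 2 (0.0247), while its log2 fold change stayed between -2.26 and -1.81 over the 6 fits that leave out 1 library. vox and vent, the relatives of ved that share its role in restricting the organizer and that Pou5f3 is known to regulate, were not called. Their log2 fold changes were -0.27 (edgeR adjusted p = 0.258) and -0.54 (adjusted p = 0.0743), and for both genes every MZsmad4a library lay below every WT library.

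The next genes were picked after their values were seen. mxtx2, the yolk syncytial layer homeobox gene that Nanog is known to activate directly, had 2, 6 and 9 counts in MZsmad4a embryos, against 15, 66 and 42 counts in WT embryos (log2 fold change -2.88, SE 0.52, edgeR adjusted p = 0.0286, DESeq2 adjusted p = 0.000419). Its MZsmad4a libraries were all below its WT libraries, on few counts. The 3 other yolk syncytial layer genes listed overlapped between the genotypes. Their log2 fold changes were -0.15 (mxtx1), 0.05 (apoa1b) and 0.09 (apobb.1), with edgeR adjusted p of 0.794, 0.974 and 0.947. sox17, an endoderm gene that Pou5f3 activates together with Sox32, had 0.82, 2.64 and 1.92 TPM in MZsmad4a embryos, against 10.1, 7.43 and 9.11 TPM in WT embryos (log2 fold change -2.19, edgeR adjusted p = 0.0204, DESeq2 adjusted p = 2.5e-07). irx7, an Iroquois homeobox gene, was on the other side, with 159.04, 129.4 and 103.4 TPM in MZsmad4a embryos, against 75.9, 84.0 and 77.8 TPM in WT embryos (log2 fold change 0.82, edgeR adjusted p = 0.0425, DESeq2 adjusted p = 0.000631). ved, mxtx2, sox17 and irx7 are the 4 genes of the early zygotic list that DESeq2 called.

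**Figure D4:**
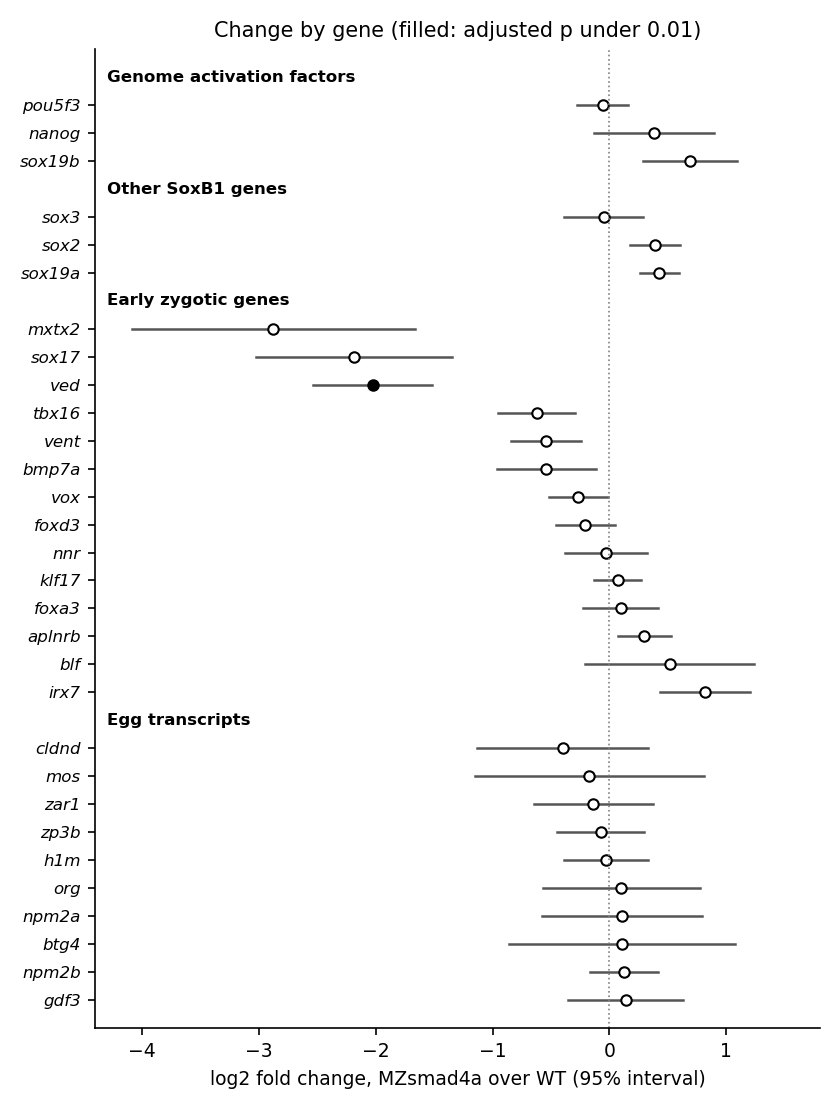
Log2 fold change of MZsmad4a over WT with its 95% interval for each gene that could be tested among the 3 genome activation factors, the other SoxB1 genes, the early zygotic genes and the egg transcripts, filled where the edgeR adjusted p is under 0.01. ved (-2.03) is the only filled point, and the intervals of pou5f3, nanog and all 10 egg transcripts include 0.

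klf17 and foxd3, from the same list, were not called. klf17, a Krüppel-like factor gene, averaged 163 ± 9.18 CPM in MZsmad4a embryos and 155 ± 8.96 CPM in WT embryos (log2 fold change 0.07, edgeR adjusted p = 0.749). foxd3, a forkhead gene of the organizer and later of the neural crest, averaged 44.1 ± 1.04 CPM in MZsmad4a embryos and 50.8 ± 4.13 CPM in WT embryos (log2 fold change -0.21, adjusted p = 0.393; SD, n = 3 each). The T-box gene tbx16 had 98.0, 132 and 147 TPM in MZsmad4a embryos, against 207.5, 216.5 and 203.6 TPM in WT embryos (log2 fold change -0.62, adjusted p = 0.0646). In tbx16 and foxd3, as in ved, vox and vent, the genotypes did not overlap.

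Other maternal transcripts were examined in the same way. Of 10 egg transcripts tested, edgeR called 0 and DESeq2 called 0, where they called 0.712% and 3.71% of all genes. In edgeR 0 had an unadjusted p under 0.05, against 17.5% of all genes. All 10 overlapped between the genotypes, where 23.6% of all genes did not overlap. The median log2 fold change of the 10 was 0.04. gdf3, the maternal TGF-β ligand Vg1 that pairs with Nodal, averaged 129.8 ± 38.8 TPM in MZsmad4a embryos and 125.8 ± 9.76 TPM in WT embryos, and h1m, the linker histone of the egg, 114.6 ± 23.8 TPM in MZsmad4a embryos and 125.1 ± 8.96 TPM in WT embryos. npm2b, a nucleoplasmin, averaged 94.7 ± 6.12 TPM in MZsmad4a embryos and 93.5 ± 13.8 TPM in WT embryos, and zp3b, an egg coat protein gene, 34.1 ± 3.59 TPM in MZsmad4a embryos and 38.4 ± 5.98 TPM in WT embryos (SD, n = 3 each). For gdf3 and h1m the lowest library was again MZsmad4a replicate 1.

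Among 5 maternal co-regulators of early transcription that could be tested, edgeR called 0 and DESeq2 0 (0.712% and 3.71% of all genes). In edgeR 1 gene had an unadjusted p under 0.05, against 17.5% of all genes. That gene was foxh1, the maternal forkhead factor that partners Smad2 in Nodal signaling. It had 236.8, 292.0 and 308.8 CPM in MZsmad4a embryos, against 319.7, 346.8 and 344.2 CPM in WT embryos (log2 fold change -0.27, edgeR adjusted p = 0.247). ctcf, a chromatin-binding zinc finger protein gene, and the pair of identifiers named EP300, histone acetyltransferase genes, had log2 fold changes of 0.11, 0.11 and 0.10. Of 9 regulators of maternal RNA stability, edgeR called 0 and DESeq2 0 (0.712% and 3.71% of all genes). In edgeR 1 had an unadjusted p under 0.05, against 17.5% of all genes. It was cnot1, a scaffold of the deadenylase complex (log2 fold change 0.27, edgeR adjusted p = 0.105). ybx1, elavl1a, khsrp and ythdf2, the most abundant of them, had log2 fold changes of -0.05, -0.11, -0.20 and 0.11 in edgeR. These lists were chosen with earlier results of these data known, and their counts are a description.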

How the data were processed

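Per the labels and the paper's methods, the authors removed adapters with cutadapt, aligned paired-end reads to GRCz11 with Ensembl gene annotation with STAR and quantified genes with RSEM. They deposited expected counts (not normalized), TPM and FPKM per gene with transcript lengths; FPKM was not used. Replicates were not pooled. The expected counts, rounded, entered edgeR (version 4.0.16, R 4.3.3) with genotype as the only term, after filterByExpr and TMM scaling, through glmQLFit and glmQLFTest. An SE was obtained as the absolute log2 fold change over the root of its F statistic, and intervals use the fit's total degrees of freedom. The fit was tested on simulated counts with 200 changed genes. It recovered 32% of those with a log2 change of 1 and 81% of those with a change of 2, in either direction. Smaller changes were not simulated. DESeq2 1.42.0 and limma 3.58.1 served as alternatives, and Python 3.11.15 for summaries. Log2 CPM used a prior count of 2. Symbols matched 26433 of 32266 identifiers. List symbols without a single identifier were left out. Counting errors cover read sampling alone, as PCR copies could not be recognised.

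The members and lists were chosen with earlier results of these data known. Genes named are the 3 factors, smad4a, the SoxB1 family, the called members of each list or otherwise its 4 most abundant, and the 3 genes closest in pattern to each factor. vox, vent, bmp7a, mxtx2, mxtx1, apoa1b, apobb.1, sox17, irx7, klf17, foxd3, tbx16, cnot1 and the genes of later stages were added after their values were seen. The edgeR and DESeq2 p-values compare the difference between genotypes with the spread between these libraries. The exact permutation p-values come from relabelling the libraries. Same-numbered libraries are not stated to share a clutch. None of the 3 factors lies on the chromosome of smad4a in RefSeq GRCz12tu. The values of 1 co-regulator are not reported here.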

Additional observations from a re-analysis of the deposited data

How the results depend on the processing

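sox19b kept its direction and stayed outside the threshold in all 17 alternatives (log2 fold change 0.53 to 0.80, adjusted p 0.0104 to 0.189), as did nanog (0.20 to 0.61, adjusted p 0.0751 to 0.73). These alternatives include the main fit read at 0.05. The adjusted p of sox19b was under 0.05 in DESeq2 (0.0106), in DESeq2 with a prior (0.0104) and in edgeR without the filter on low counts (0.0473). pou5f3 stayed outside the threshold in all 17 (log2 fold change -0.168 to 0.0053, adjusted p 0.36 to 0.987) but changed sign in 1 fit that left out a library. Over the fits without 1 library its log2 fold change ranged from -0.13 to 0.0053. It was further from WT with only library size used for scaling (-0.165) and with limma on log2(TPM + 1) (-0.168) than under TMM scaling (-0.06). The range without 1 library was 0.20 to 0.61 for nanog and 0.53 to 0.80 for sox19b, and 0.533 to 1.61 percentage points for the SoxB1 share of sox19b. With counts in place of TPM that share differed by 1.43 points. The number of genes called moved most. edgeR called 112 genes, DESeq2 658 (343 lower, 315 higher), and 650 were called by DESeq2 once fold changes were shrunk by a prior. Without the filter on low counts edgeR called 283, with at least 10 counts in every library 64 and at an adjusted p under 0.05 it called 461. Leaving out 1 library gave 24 to 71 calls. Removal of the 2 genes with over 1% of counts, chosen after seeing the data, left 112.

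Same-numbered libraries did not deviate together throughout (correlations 0.11, -0.03 and 0.14 for replicates 1, 2 and 3). Differently numbered libraries had correlations of -0.20 to 0.08, below those of replicates 1 and 3. These values do not settle whether the numbers are pairs, and no shared clutch is stated. The replicate number was therefore not taken as a pairing in the main test. With the replicate block edgeR called 29 genes, and the log2 fold changes of pou5f3, nanog and sox19b were -0.06, 0.34 and 0.68 (edgeR adjusted p 0.757, 0.451 and 0.0837). ved was then outside the threshold (adjusted p = 0.0218). In same-numbered pairs the sox19b share differed by 1.18 points on average (exact sign permutation p = 0.25, the smallest that 3 pairs allow). Depth limits mxtx2 and the pair named SOX1 most, as 3 counts correspond to 0.144 to 0.306 CPM.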
